A study of Mus musculus with 15 samples.

Results

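The genes described here are those of glucose release and glycogen turnover in the liver: G6pc, Slc37a4, Fbp1, Pcx, Gys2, Pygl, Gckr, Ppargc1a and Foxo1. They were chosen by name, and of 10 names 9 had a probe, 12 probes of 41174 on the array and 9 genes of 27343. The remaining name, Pck1, is not analysed here. The samples were mouse hepatocytes measured on 15 Agilent 1-colour arrays.

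The mHep group held 7 arrays of expandable hepatocytes, liver-derived cells that multiply in culture, and was taken to be the cells kept for 21 days in differentiation medium, since the labels do not spell the name out. The eHep group held 7 arrays of the same kind of cells kept for 21 days in expansion medium. Both groups came from the same 3 mice: 129S1-No1 and C57B6-No1 with 3 arrays per medium each, and 129S1-No2 with 1 array per medium. The last group was 1 array of primary hepatocytes, isolated from C57B6 mice by collagenase perfusion of the liver. The labels give no age, sex or genetic change for any group, and nothing says that the arrays of 1 mouse were separate cultures. For the mHep array of 129S1-No2 the labels conflict, with mHep in the title and eHep in the source, and the title was followed.

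The liver feeds the blood with glucose by breaking down glycogen and by making new glucose from lactate, amino acids and glycerol, and both routes end in glucose 6-phosphate. Glucose 6-phosphate is carried into the endoplasmic reticulum and split there, a step that few tissues other than liver and kidney can take. Glucagon and fasting raise the new synthesis of glucose through cAMP, FOXO1 and the coactivator PGC-1 alpha, and insulin lowers it.

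Levels are log2 signals of a probe relative to the 75th percentile of its array, so they compare arrays for the same gene and not different genes. A probe was called measured on an array where the scanner software set it well above background. Between 48.8% and 61.9% of probes reached that mark on cultured arrays and 36.3% on the primary array. The log2 75th percentile itself was 7.96 to 9.69 on cultured arrays and 6.29 on the primary array. Arrays of 1 mouse in 1 medium correlated with r between 0.911 and 0.994. Of 2 scans, the earlier took in the primary cells, 129S1-No2 in both media and, again in both media, C57B6-No1 replicate 3, and the later scan all others. The eHep arrays of 129S1-No1 all lay on slide 3 and its mHep arrays all on slide 4. For 129S1-No2 the eHep array lay on slide 2 and the mHep array on slide 1. Slide 5 held only mHep arrays of C57B6-No1. The number of arrays limits the precision.

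The cells' own markers give the setting of these values. The summed linear level of 7 hepatocyte markers, in units of the 75th percentile, lay between 117 and 550 in mHep, between 5.56 and 18.5 in eHep, and at 4767 in primary cells. In eHep no array had Ttr or Cps1 well above background. The sum of 6 biliary markers lay between 149 and 849 in mHep, between 268 and 618 in eHep, and at 5.38 in primary cells, where Krt7, Krt19, Epcam and Cftr were not well above background. Macrophage markers summed to 0.308 to 0.923 in mHep, 0.172 to 2.79 in eHep and 13.4 in primary cells, and endothelial ones to 0.121 to 0.436 in mHep, 0.0739 to 0.480 in eHep and 3.36 in primary cells. Adgre1, Clec4f and Cd5l of the macrophage list and Pecam1 and Cdh5 of the endothelial list were not well above background in either medium. Stellate and fibroblast markers summed to 0.196 to 9.78 in mHep, 0.137 to 1.27 in eHep and 4.97 in primary cells. The part of any of these cell types in the results below was not tested.

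**Figure D1:**
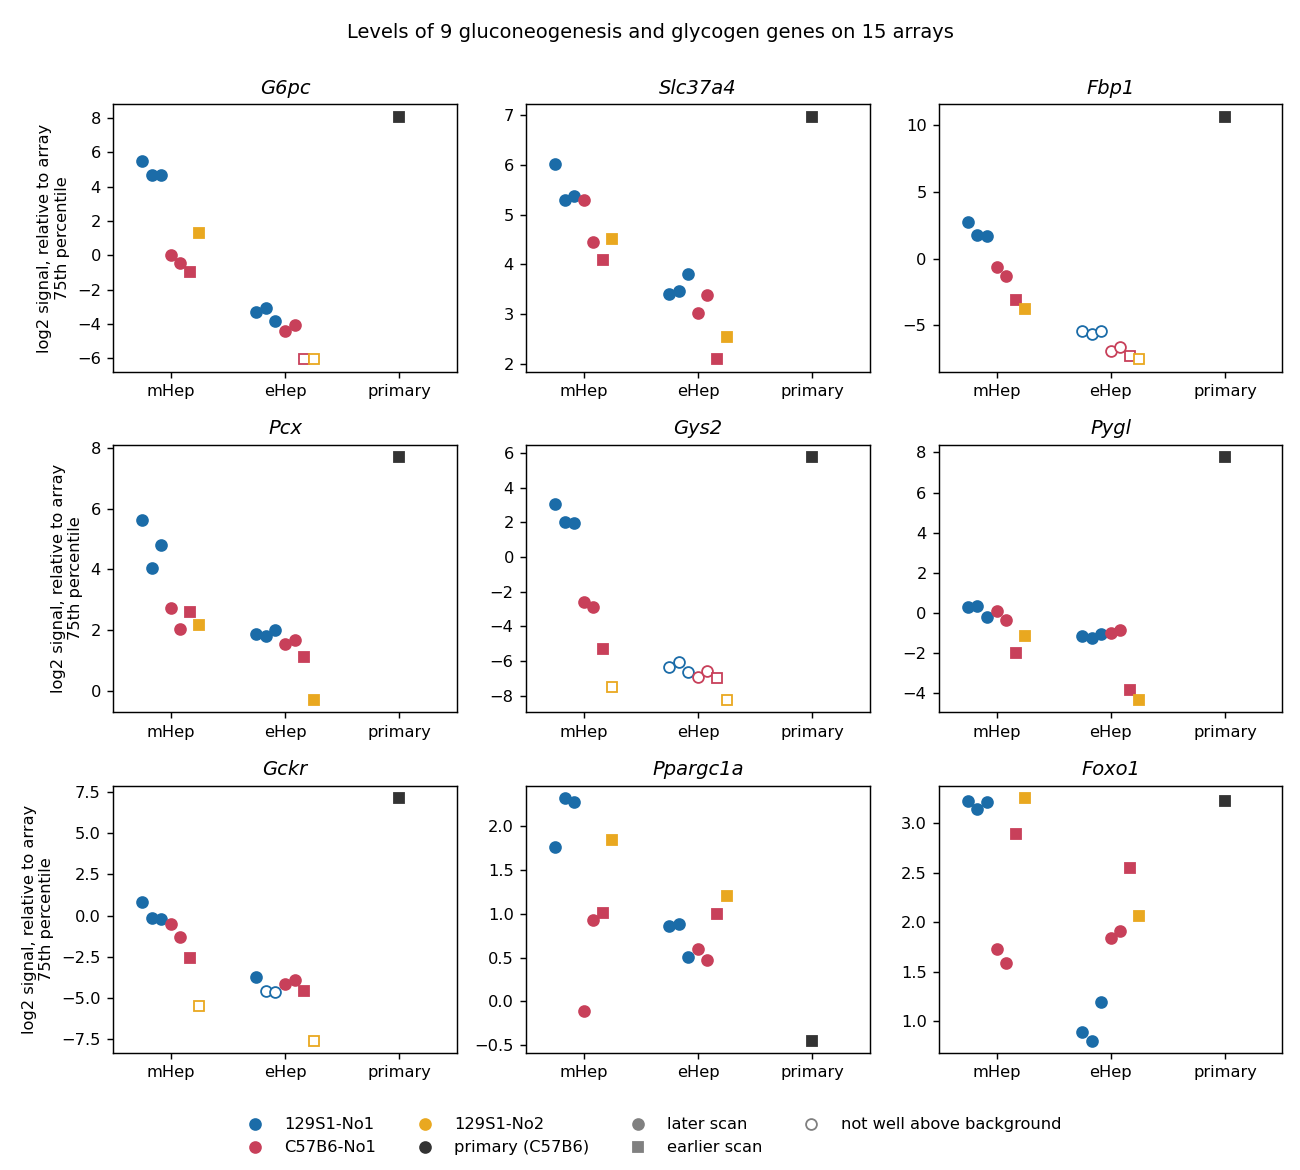
Levels of the 9 genes on every array, as log2 signal relative to the array's 75th percentile, for mHep, eHep and primary cells. Colours mark the mouse, squares the earlier scan, circles the later scan and open symbols arrays on which the probe was not well above background. G6pc, Slc37a4, Fbp1 and Pcx lie higher on every mHep array than on any eHep array, and Fbp1 has open symbols on all 7 eHep arrays.

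Between mHep and eHep all 9 genes had a positive mean difference, and 2 of them, G6pc and Fbp1, passed an adjusted p of 0.05 with no gene passing in the other direction. Over all 14589 genes tested, 1.4% were called higher in mHep and 0.452% lower. All 9 genes met the filter on low signals, but G6pc, Fbp1, Gys2 and Gckr met it through mHep alone, so the count describes these genes and supports nothing further. With readings under background raised to the limit of their array, 1 of the 9 passed, G6pc. Over all genes 211 were then called higher and 80 lower. The median difference of the 9 genes was 2.14 on the log2 scale, against -0.09 over all genes tested. On 4 of the 9 genes every mHep array lay above every eHep array, which held for 2.78% of all genes tested, and on 0 genes the reverse, which held for 2.86%. In these bulk samples fewer cells that express a gene and less RNA of it per cell cannot be told apart.

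G6pc encodes the catalytic subunit of glucose-6-phosphatase, the enzyme that frees glucose in the last step of both routes. Its level on mHep arrays ran from -0.99 through a median of 1.31 to 5.47. On eHep arrays it ran from -6.07 through a median of -4.09 to -3.06, and it was 8.09 on the primary array. The groups did not overlap, but the mice differed in level. In mHep 129S1-No1 averaged 4.94, 129S1-No2 1.31 and C57B6-No1 -0.46, and in eHep they averaged -3.40, -6.03 and -4.86 in the same order. G6pc rose by 6.69 ± 0.78 (log2, SE, n = 3 mice), a 103-fold higher signal in mHep, with an adjusted p of 0.0193 in limma's moderated test, and it was higher in 3 of 3 mice. It was measured on 7 of 7 mHep arrays and on 5 of 7 eHep arrays. With readings under background raised to the lowest measured signal of their array the fold was 92.2.

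The RefSeq promoter windows below are shown because G6pc, Gckr and Fbp1 had low or unmeasured signals in eHep and the highest in primary cells. Each gives 250 bases before the annotated start in GRCm38.p6, 5′ to 3′ on the gene's strand. Capitals mark matches to the HNF1 part site GTTAAT, and in Gckr also the C/EBP pattern TTGCNNAA read on the opposite strand. The windows are chr11:101367466-101367715 (plus strand) for G6pc, chr5:31297313-31297562 (plus strand) for Gckr and chr13:62888283-62888532 (minus strand) for Fbp1.
G6pc: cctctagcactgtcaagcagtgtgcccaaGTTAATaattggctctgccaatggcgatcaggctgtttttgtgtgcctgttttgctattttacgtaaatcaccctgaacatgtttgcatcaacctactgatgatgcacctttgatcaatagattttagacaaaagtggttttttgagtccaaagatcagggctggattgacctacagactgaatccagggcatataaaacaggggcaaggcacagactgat
Gckr: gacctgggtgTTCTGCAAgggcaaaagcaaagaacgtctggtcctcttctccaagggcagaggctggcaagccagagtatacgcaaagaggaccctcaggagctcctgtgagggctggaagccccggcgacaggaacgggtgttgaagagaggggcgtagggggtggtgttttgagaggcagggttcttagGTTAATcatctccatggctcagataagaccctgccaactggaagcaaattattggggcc
Fbp1: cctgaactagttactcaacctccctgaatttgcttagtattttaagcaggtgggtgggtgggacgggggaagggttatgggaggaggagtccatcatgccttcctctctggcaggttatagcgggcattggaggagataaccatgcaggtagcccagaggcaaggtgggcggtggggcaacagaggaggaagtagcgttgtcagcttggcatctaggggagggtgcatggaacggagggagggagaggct

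In the G6pc window the HNF1 part site lay 221 to 216 bases before the start, and in the Gckr window 59 to 54 bases before it. The C/EBP match of Gckr lay 240 to 233 bases before the start. Windows were found for 8 of the 9 genes, 11 windows in all, and searched on both strands. The HNF1 part site was in 2 of these 11 windows and in 6.43% of all 32851 windows, and the C/EBP pattern in 1 of 11 and 9.56%. The cAMP response element core TGACGT was in the Ppargc1a window, 50 to 45 bases before the start on the opposite strand, and in 2 overlapping Slc37a4 windows that share the same match. It was in 6.47% of all windows. The FOXO motif TGTTTAC, in 3.17% of all windows, and the HNF4 part site CAAAGTC, in 3.84%, were in none of the 11. The Fbp1 window held none of the motifs searched. None of these motifs overlapped another in the windows shown, and a match is a run of letters, not a measured binding site. Variants of these letters were not searched, so a window without a match may still hold a site.

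Slc37a4 encodes the transporter that carries glucose 6-phosphate into the endoplasmic reticulum to the enzyme. The mHep arrays read from 4.09 through 5.28 to 6.02. The eHep arrays read from 2.10 through 3.38 to 3.82, and the primary array read 6.97. The mHep and eHep arrays did not overlap, and the gene was measured on every array of all groups. The difference was 1.92 ± 0.37, 3.78-fold, and did not pass (adjusted p = 0.0751), although its 3 values of 2.00 in 129S1-No1, 1.98 in 129S1-No2 and 1.78 in C57B6-No1 lay closer together than those of any other gene here.

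Fbp1 encodes fructose-1,6-bisphosphatase, which reverses the committed step of glycolysis. In mHep its signal ran from -3.76 through -0.60 to 2.79. In eHep it ran from -7.54 through -6.61 to -5.40, all of them not well above background, and the primary array read 10.65. Every mHep array was measured, and the highest, from 129S1-No1, still lay far under the primary array. On the readings as they stand Fbp1 was higher in mHep by 5.55 ± 0.74 on the log2 scale (adjusted p = 0.0296, limma, n = 3 mice), with changes of 3.78 in 129S1-No2, 5.27 in C57B6-No1 and 7.60 in 129S1-No1. That difference and its p rest on eHep readings that were not measured, so the signal in eHep is only a bound and mHep was at least 13.4-fold higher. With readings under background raised to that limit the difference was 3.74, with an adjusted p of 0.0705, and the call ended.

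Pcx encodes pyruvate carboxylase, the mitochondrial enzyme that turns pyruvate into oxaloacetate at the entry to the pathway. Its signal on mHep arrays spanned 2.02 through 2.74 to 5.63. Its eHep arrays read from -0.31 through 1.67 to 2.01, and the primary array read 7.71. The lowest mHep array, of C57B6-No1, and the highest eHep array, of 129S1-No1, nearly met. The difference of 2.14 ± 0.50 did not pass (adjusted p = 0.115), with 2.93 in 129S1-No1, 2.47 in 129S1-No2 and 1.01 in C57B6-No1.

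Of the glycogen enzymes, Gys2 encodes the liver form of glycogen synthase. Levels in mHep reached from -7.51 through -2.58 to 3.03. Levels in eHep ran from -8.24 through -6.62 to -6.07, and the primary array read 5.75. No eHep array was measured, and neither was the mHep array of 129S1-No2, which was the lowest of its group. The 3 mice spread widely, with changes of 0.72 in 129S1-No2, 3.25 in C57B6-No1 and 8.67 in 129S1-No1, and the mean of 4.22 ± 1.40 did not pass (adjusted p = 0.240). With only the eHep readings under background raised to the lowest measured signal of their array, the fold was 3.81. It is no lower bound, since the mHep mean holds the unmeasured array of 129S1-No2.

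Pygl encodes liver glycogen phosphorylase, which releases glucose 1-phosphate from glycogen. On the mHep arrays its level ran from -1.99 through -0.19 to 0.32. On the eHep arrays it ran from -4.35 through -1.18 to -0.86, and the primary array read 7.76. The groups overlapped, and the lowest arrays of both were those of the earlier scan: mHep arrays at -1.99 and -1.18, and eHep arrays at -3.83 and -4.35. The difference was 1.88 ± 0.53 and did not pass (adjusted p = 0.172), at 2.51 on the earlier scan's arrays and 1.05 on the later scan's. The other Pygl probe, named after a clone, was not well above background on any of the 15 arrays.

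Gckr encodes a nuclear regulatory protein of hepatocytes that restrains the phosphorylation of glucose. The 7 mHep arrays read from -5.50 through -0.50 to 0.82. The 7 eHep arrays read from -7.58 through -4.58 to -3.74, and the primary array read 7.14. It was measured on 6 of 7 mHep arrays and 4 of 7 eHep arrays, and neither array of 129S1-No2 measured it. The difference of 3.11 ± 0.55, 8.63-fold, did not pass (adjusted p = 0.0601), and was positive in 3 of 3 mice. With readings under background raised to the limit of their array the difference was 2.52.

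The 2 regulators had the smallest mean differences. Ppargc1a, the gene of PGC-1 alpha, read from -0.10 through 1.76 to 2.32 on mHep arrays, from 0.47 through 0.86 to 1.20 on eHep arrays, and -0.45 on the primary array. Foxo1, which encodes a transcription factor that insulin signalling keeps out of the nucleus, read from 1.59 through 3.15 to 3.26 on mHep arrays, from 0.81 through 1.84 to 2.55 on eHep arrays, and 3.23 on the primary array. Both genes were measured on every array, and their mHep and eHep arrays overlapped. The difference was 0.65 ± 0.44 for Ppargc1a (adjusted p = 0.557) and 1.13 ± 0.53 for Foxo1 (adjusted p = 0.388), and neither passed. Each had another probe with similar mean differences, 0.57 for Ppargc1a and 1.27 for Foxo1.

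**Figure D2:**
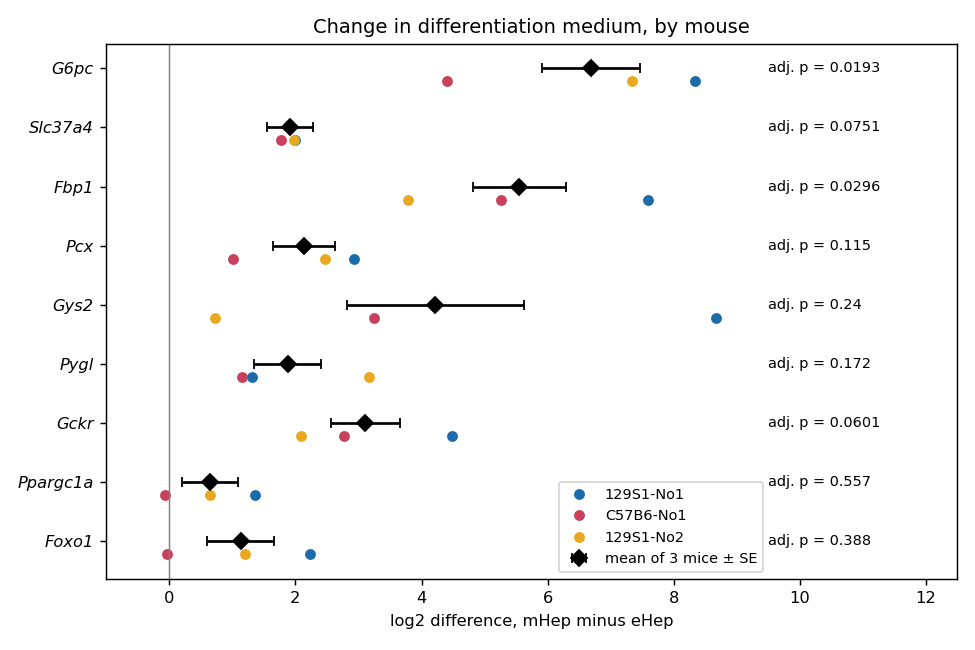
Log2 difference of mHep minus eHep for each gene: black diamonds show the mean of 3 mice with its SE, coloured points each mouse, and the adjusted p is from limma over all genes tested. G6pc and Fbp1 have adjusted p-values of 0.0193 and 0.0296, and the Gys2 points spread from 0.72 to 8.67.

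The calls of G6pc and Fbp1 depended on the processing. Under quantile normalization G6pc differed by 6.61 and Fbp1 by 5.37, with adjusted p-values of 0.0681 and 0.105. Under a scale fixed by probes measured on all arrays they differed by 6.80 and 5.66, with 0.0644 and 0.0944. Without mouse as a block the adjusted p-values were 0.212 and 0.304. With normexp background correction the differences were 4.58 and 2.38, and only G6pc passed (0.0417, against 0.155 for Fbp1). With 14 arrays as samples in place of mouse means the differences were 6.51 and 6.05. Adding scan gave the same values, as it must, since each mouse had the same scans in both media. Adding slide to the 14 arrays gave 6.33 and 5.52. The earlier scan alone gave 6.21 and 3.99, and the later scan alone 6.20 and 6.70. Of the 9 genes, 3 passed when 129S1-No1 was left out, 4 when C57B6-No1 was and 4 when 129S1-No2 was. In the same order 642, 351 and 413 of all 14589 genes tested were called higher, against 204 in the main fit.

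The mice were compared directly in C57B6-No1 and 129S1-No1, each with 3 arrays per medium, where the p-values measure the spread between arrays of 1 animal and set 2 animals, not 2 strains, against each other. Within C57B6-No1, 5 of 9 genes rose in mHep, beside 12.4% of all genes tested, with 14.3% of all genes lower: G6pc, Slc37a4, Fbp1, Gys2 and Gckr. Fbp1 and Gys2 were measured on no eHep array, so their changes within either mouse rest on readings that were not measured. Within 129S1-No1, 8 of 9 rose, beside 17.9% of all genes tested, with 28.4% of all genes lower, and Pygl did not pass there (1.31 ± 0.72, adjusted p = 0.151). The eHep and mHep arrays of 129S1-No1 lay on different slides, so medium and slide cannot be told apart within this mouse. The difference of the changes passed for 5 of 9 genes, all with the smaller change in C57B6-No1, beside 6.19% of all genes tested in that direction.

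Gys2 differed most, with a change of 3.25 ± 0.59 in C57B6-No1 and 8.67 ± 0.59 in 129S1-No1 (difference -5.42 ± 0.84, adjusted p = 0.00207). G6pc changed by 4.40 ± 0.49 in C57B6-No1 and by 8.34 ± 0.49 in 129S1-No1 (difference -3.94 ± 0.69, adjusted p = 0.00410). These were the glycogen synthase and the glucose-releasing enzyme. Gys2 was measured on no eHep array of either animal, so its changes, their errors and the p rest on readings that were not measured. G6pc was low in eHep but measured there, except on replicate 3 of C57B6-No1. Foxo1 changed by -0.03 ± 0.33 in C57B6-No1 and by 2.23 ± 0.33 in 129S1-No1 (difference -2.26 ± 0.47, adjusted p = 0.00951). Pcx (difference -1.92 ± 0.51, adjusted p = 0.0278) and Ppargc1a (difference -1.44 ± 0.44, adjusted p = 0.0464) also passed.

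The other 4 genes did not pass this test. Fbp1 had a difference of -2.33 ± 0.75 (adjusted p = 0.0556) and Gckr of -1.71 ± 0.70 (adjusted p = 0.115). Slc37a4, the transporter, changed by 1.78 ± 0.39 in C57B6-No1 and 2.00 ± 0.39 in 129S1-No1, with a difference of -0.22 ± 0.54 (adjusted p = 0.786). Pygl had a difference of -0.17 ± 1.02 (adjusted p = 0.918), the widest error of the 9. With slide as a term only Gys2 (adjusted p = 0.00187) and Foxo1 (adjusted p = 0.0462) still passed. Without array replicate 1 of each mouse and medium Gys2 alone passed (adjusted p = 0.0469), and without replicate 2 none of the 9 did, with Gys2 at 0.0679 and G6pc at 0.0948. Over all genes, calls with the lower change in C57B6-No1 fell too, from 903. They were 296 with slide, 110 without replicate 1 and 64 without replicate 2.

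**Figure D3:**
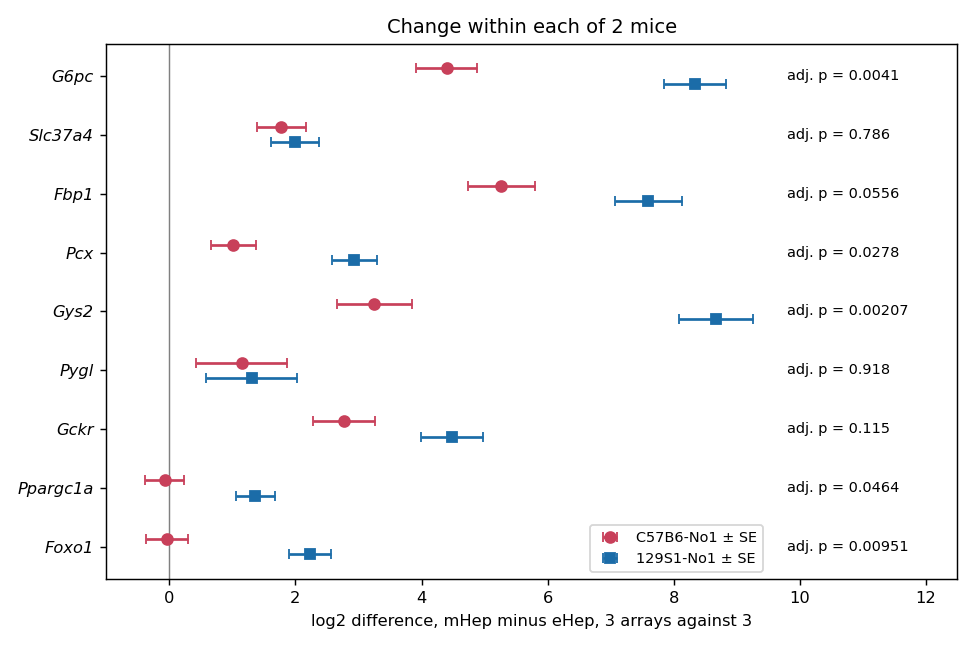
Log2 difference of mHep minus eHep within C57B6-No1 (circles) and 129S1-No1 (squares), 3 arrays against 3, with SE, and the adjusted p of the difference between these 2 mice at the right. The Gys2, G6pc and Foxo1 points stand apart, while those of Slc37a4 and Pygl lie within their errors of each other.

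Against primary hepatocytes a fit on the 6 mouse means and the 1 primary array was used, in which the primary cells are assumed to vary like the cultured ones, and a call also needed a log2 difference of at least 1. Both comparisons share that array. In mHep 3 of 9 genes were called lower and 0 higher, beside 5.99% and 3.99% of 15171 genes tested. In eHep 7 of 9 were called lower and 0 higher, beside 9.38% and 5.61%. The median of the 9 genes was -6.16 in mHep minus primary, against -0.33 over all genes, and -10.23 in eHep minus primary, against -0.18 over all genes. Under quantile normalization the medians of all genes were 0.24 in mHep and 0.33 in eHep. The 3 genes called in mHep and the 7 called in eHep passed there too. For the 7 genes called in eHep the gaps to primary cells were smaller there, from -0.49 to -9.86 in mHep and from -2.62 to -15.22 in eHep, where the last is for Fbp1, not measured in eHep.

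Among the 9 genes the largest gap was that of Fbp1. In mHep minus primary cells it was -11.76 ± 2.04 (adjusted p = 0.0170), so that primary cells had a 3457-fold higher signal. In eHep it was at least 46260-fold lower than in primary cells (adjusted p = 0.00413). Pygl differed by -8.36 ± 1.23 in mHep (adjusted p = 0.00936) and by -10.23 ± 1.23 in eHep (adjusted p = 0.00434). Gckr differed by -9.41 ± 2.25 in mHep (adjusted p = 0.0472) and by -12.52 ± 2.25 in eHep (adjusted p = 0.0143). These 3 genes were called lower than primary cells in both media: an enzyme of glucose synthesis, an enzyme of glycogen breakdown and a regulator of glucose phosphorylation. The adjusted p of Fbp1 in eHep rests on readings that were not measured.

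The other 4 genes called in eHep were not called in mHep, and for Gys2 the call in eHep rests on readings that were not measured. G6pc differed from primary cells by -6.16 ± 1.99 in mHep (adjusted p = 0.104) and by -12.85 ± 1.99 in eHep (adjusted p = 0.00842). Slc37a4 differed by -2.07 ± 0.69 in mHep (adjusted p = 0.112) and by -3.99 ± 0.69 in eHep (adjusted p = 0.0125), and under quantile normalization by -0.49 in mHep and -2.62 in eHep. Pcx differed by -4.56 ± 1.27 in mHep (adjusted p = 0.0731) and by -6.70 ± 1.27 in eHep (adjusted p = 0.0174). Gys2 differed by -8.67 ± 3.22 in mHep (adjusted p = 0.143) and was at least 1554-fold lower in eHep (adjusted p = 0.0418). On the scale of the main fit every mHep array nevertheless read below the primary array for 7 of the 9 genes, and every eHep array for 8. No share of all genes is given for these counts, so they describe the 9 genes only. They also depend on the scale, since Slc37a4, among the 7, differed by only -0.49 in mHep under quantile normalization. That a call was made in eHep and not in mHep is no test of their difference, which for these genes is the comparison of the media above.

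The regulators stood elsewhere. Ppargc1a read above the primary array on all 14 cultured arrays, by 1.97 ± 0.72 in mHep (adjusted p = 0.138) and 1.32 ± 0.72 in eHep (adjusted p = 0.263), and was not called. Its other probe was not measured on the primary array. Foxo1 differed from primary cells by -0.39 ± 0.76 in mHep (adjusted p = 0.779) and -1.52 ± 0.76 in eHep (adjusted p = 0.227). Its sign in mHep turned with the scaling, to 0.25 under quantile normalization.

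**Figure D4:**
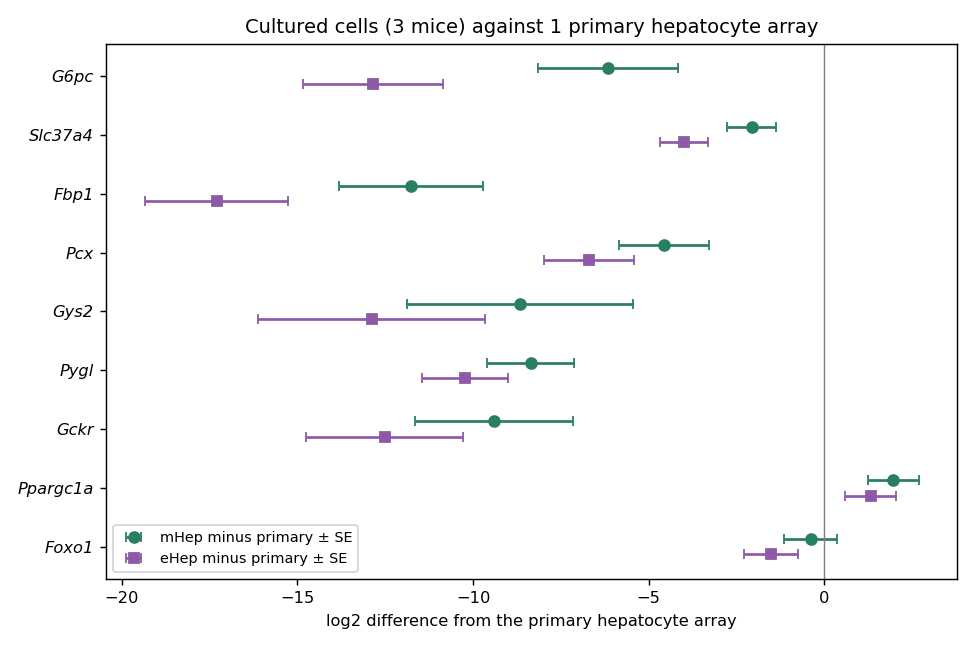
Log2 difference of mHep (circles) and eHep (squares) from the single primary hepatocyte array, with the SE of the fit, which assumes the spread of the cultured mouse means for the primary array. Fbp1, Gckr and Pygl lie far below 0 in both media, while Ppargc1a lies above it at 1.97 in mHep and 1.32 in eHep.

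The calls against primary cells changed with the mouse left out. Without C57B6-No1 the 3 genes called in mHep no longer passed, and fewer genes passed in eHep. In mHep the differences of those 3 were then -11.48 for Fbp1, -8.28 for Pygl and -9.81 for Gckr. Calls over all genes fell far as well, so the loss is not particular to these genes. With the arrays of C57B6-No1 alone, the strain of the primary cells, 7 of 9 were called lower in mHep, beside 2293 of all 15171 genes. That fit took arrays and not mouse means as samples, so its p-values measure the spread between arrays of 1 animal. Within the earlier scan, which held the primary array, 7 of 9 were called lower in mHep, beside 2499 of all genes. The main fit called 909 of all genes lower in mHep.

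The other genes of the pathway were taken from 6 lists of 103 names, of which 91 could be tested between mHep and eHep. Of these, 5 rose in mHep and 0 fell, beside the 1.4% and 0.452% of all genes, and their median difference was 0.42 against -0.09 over all genes. Under quantile normalization, in the authors' value table and with a scale from probes measured on all arrays, 0 of these 5 passed. The list of glucose output and phosphate release had 3 of 5 tested genes higher, with a median of 2.70. Slc2a2, the main hepatocyte glucose transporter of the plasma membrane, averaged 1.73 ± 1.85 in mHep and -3.37 ± 1.11 in eHep (SD, n = 3 mice), and 4.33 in primary cells (mHep minus eHep 5.10 ± 0.71, adjusted p = 0.0319). Slc17a3, a phosphate and organic anion transporter, was at least 8.77-fold higher in mHep, and no eHep array measured it. It met the filter through mHep alone. Its adjusted p of 0.0193 (limma) rests on eHep readings that were not measured, and so does its place among the 5 and the 3 genes counted above. Slc37a1, a relative of Slc37a4, was 6.50-fold higher in mHep (adjusted p = 0.0457).

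None of the 13 enzymes shared with glycolysis that are reported here passed, and the median of their differences was -0.24. Of 24 genes of hormone signals and transcriptional control, 2 rose: Gcgr, the glucagon receptor (4.71 ± 0.58, adjusted p = 0.0251), and Igfbp1, a secreted binding protein whose gene insulin represses (6.38 ± 0.89, adjusted p = 0.0319). The median of this list was 0.33. None of 16 genes of substrate entry passed (median 0.73), none of 14 genes of glucose phosphorylation and the opposing steps (median 0.58) and none of 19 genes of glycogen building, breakdown and control (median 0.37).

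**Figure D5:**
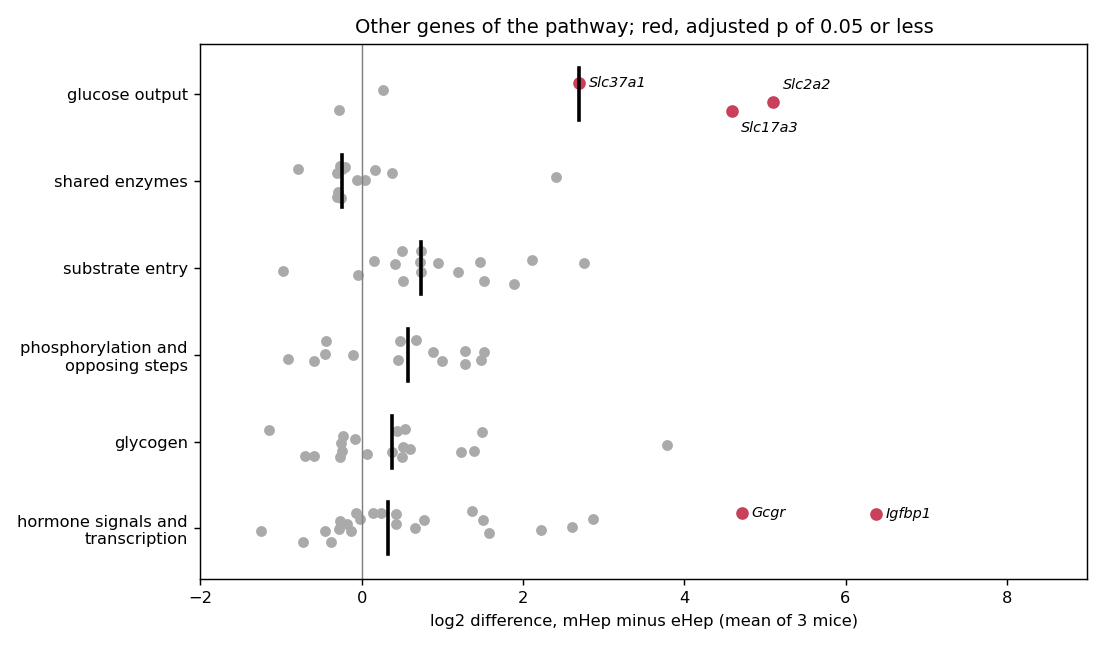
Log2 difference of mHep minus eHep, mean of 3 mice, for the 91 tested genes of 6 pathway lists, with 1 row per list, black bars at the list medians and red points for an adjusted p of 0.05 or less. The 5 red points are Slc2a2, Slc17a3, Slc37a1, Gcgr and Igfbp1, all above 0, and the glycogen row has none. Slc17a3 was not measured on any eHep array. Under quantile normalization 0 of the 5 passed.

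Against primary cells 7 of the 92 tested list genes were higher and 6 lower in mHep, and 8 were higher and 20 lower in eHep, beside the shares of all genes given above. The next 3 genes were chosen after their values were seen. For 2 of them, Gys1 and Pygb, the primary reading was not measured. Their adjusted p-values rest on that reading and do not belong to the bounds given. Pck2, the mitochondrial form of phosphoenolpyruvate carboxykinase, averaged 5.11 ± 0.88 in mHep and 5.31 ± 0.17 in eHep, and 1.44 in primary cells (adjusted p = 0.0289 for mHep and 0.0179 for eHep). Gys1, the muscle form of glycogen synthase, was not measured in primary cells and was at least 1.90-fold higher in mHep (adjusted p = 0.0941) and at least 3.11-fold higher in eHep (adjusted p = 0.0421). Pygb, the brain form of glycogen phosphorylase, was at least 5.34-fold higher in mHep (adjusted p = 0.0656) and at least 5.10-fold higher in eHep (adjusted p = 0.0547), and did not pass in either.

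The likeness of the profiles was measured as the root mean square difference of mean-centred log2 levels over the 15 arrays, a description that rests much on the single primary array. Nearest to G6pc in the whole table were Itih3, which encodes a heavy chain of inter-alpha-trypsin inhibitor, at 0.721, and Dio1, the type 1 iodothyronine deiodinase, at 0.825. Among the 9 genes the nearest to G6pc was Fbp1 at 1.58.

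The probes lay, in mm9 coordinates of the array design, at chr11:101238947-101239006 for G6pc (NM_008061), chr9:44210987-44211045 for Slc37a4 (NM_008063), chr13:62966175-62966234 for Fbp1 (NM_019395), chr19:4621637-4621696 for Pcx (NM_008797) and chr6:142371206-142371265 for Gys2 (NM_145572). Those of the remaining genes lay at chr12:71291855-71291914 for Pygl (NM_133198), chr5:31629583-31629642 for Gckr (NM_144909), chr5:51848928-51848987 for Ppargc1a (NM_008904) and chr3:52150183-52150242 for Foxo1 (NM_019739). Which exon or untranslated region each probe falls in was not looked up, since no annotation of that build was used here.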

How the data were processed

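The files were 15 scanner outputs and the series' value table. Per the file headers, Cy3 arrays were read with versions 10.7.1.1 and 10.7.3.1 of Agilent's Feature Extraction, and the deposited processed signal is a background-subtracted intensity not scaled between arrays. The authors' deposited value table holds log2 values whose quartiles are equal across arrays, and how it was made is not given in the sources used here. Spots of a probe were averaged, log2 signals were centred on the array's 75th percentile, and each gene was read from its brightest probe on average. For folds given as at least, readings of the lower group under background were raised to the lowest measured signal of their array. These folds hold on this scale only. The arrays of each mouse in a medium were averaged, and a limma model (limma 3.58.1, R 4.3.3) had terms for medium and mouse. Genes entered the tests if, in either medium, at least 2 of 3 mice had the probe well above background on each array, or, for comparisons with primary cells, if the primary array did. Adjusted p-values are Benjamini-Hochberg over all genes tested, with a threshold of 0.05. The same mouse pairs the media per the labels. Deviations of a mouse in mHep and in eHep correlated at 0.397, 0.567 and 0.539, against at most 0.00802 between mice. Each mouse had the same scans in both media, so these correlations are no separate check of the pairing. In 12 arrays, mouse by medium means gave the changes within mice and their difference. Genes named outside the 9 were list genes that passed between mHep and eHep, and the 2 nearest in profile to G6pc, while Pck2, Gys1 and Pygb were chosen after their values were seen; the same rule for Pck1 was not applied. Some genes of the lists are not reported here and were left out of the lists' counts. The members, lists and tests were chosen with earlier results of these data known. Promoter windows came from RefSeq (GRCm38.p6). The fits were tested on simulated data. Figures were drawn with matplotlib 3.10.9.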

Additional observations from a re-analysis of the deposited data

Results flagged for a closer look

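In eHep the array of 129S1-No2 stood apart below the other 6 eHep arrays, as judged by its gap to the nearest array, for 3 genes. Pcx read -0.31 there, against 1.12 on the next array, with a gap of 0.617 of the whole range. Gys2 read -8.24 there, against -6.98 on the next, with a gap of 0.580 and no array well above background. Gckr read -7.58 there, against -4.64 on the next, with a gap of 0.765, and it was not well above background on either. The critical gap for 7 independent values is 0.568, at which chance marks about 1 in 20 groups. The 7 eHep arrays are not independent, since the other 6 come from mice with 3 arrays each. That rate therefore does not hold here, and the gaps only describe these arrays. The array of 129S1-No2 is the only eHep array of its mouse and was read in the earlier scan.

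The change of mHep minus eHep differed between C57B6-No1 and 129S1-No1, by a test of the difference itself, for 5 genes. The change in C57B6-No1 minus that in 129S1-No1 was -3.94 for G6pc, -1.92 for Pcx, -5.42 for Gys2, -1.44 for Ppargc1a and -2.26 for Foxo1. Gys2 was measured on no eHep array. Each mouse stands for 1 animal, so strain, animal and culture cannot be told apart.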

How the results depend on the processing

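Between mHep and eHep 2 of the 9 genes, 5 list genes and 270 of all genes passed. In that order the counts were 1, 6 and 179 with normexp background; 0, 0 and 111 with quantile normalization or with the authors' value table; 0, 0 and 105 with the percentile of probes measured on all arrays; 3, 9 and 521 with median scaling; 3, 9 and 657 without a filter; 3, 7 and 424 with a strict filter; 2, 3 and 236 with the mean of all probes; 4, 8 and 397 with trended robust moderation; and 1, 7 and 291 with readings raised to background. Without mouse as a block they were 0, 0 and 2, and with the array replicate number as a block over 12 arrays, which the labels do not tie to a shared day, 7, 39 and 5476. With 14 arrays as samples they were 8, 35 and 5017, with slide added 7, 19 and 3008, with scan added 8, 40 and 6171, within the earlier scan 6, 19 and 1495, and within the later scan 4, 5 and 463. Leaving out a mouse or an array replicate gave 2 to 4, 6 to 12 and 247 to 840.

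In mHep against primary cells 3 genes and 1515 of all genes were called. Normexp gave 3 and 983, no filter 5 and 8754, and C57B6-No1 alone, with arrays as samples, 7 and 4062. The earlier scan gave 7 and 3985, and leaving out a mouse 0 to 6 and 108 to 1578. In eHep against primary cells, where 7 and 2274 were called, no filter gave 7 and 8404, C57B6-No1 alone 7 and 4970, the earlier scan 7 and 5494, and leaving out a mouse 3 to 7 and 443 to 2383. The difference between mice was called for 5 genes, 2 with normexp, 2 with slide, 7 with the replicate block and 0 to 4 without an array replicate. Of all genes, 903 were called with the lower change in C57B6-No1. That count was 173 with normexp, 296 with slide, 1526 with the replicate block and 64 to 956 without an array replicate. The split of all genes into higher and lower also moved with the scale. For mHep against eHep it was 204 to 66, 95 to 16 with quantile normalization and 97 to 8 with the percentile of measured probes. For mHep against primary cells it was 606 to 909, 1308 to 826 with quantile normalization, 909 to 781 with the percentile of measured probes and 290 to 693 with normexp. For eHep against primary cells it was 851 to 1423, 1701 to 1299 with quantile normalization and 1192 to 1306 with the percentile of measured probes.

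Signs turned only for differences near 0 that passed no test. Foxo1 in mHep minus primary became 0.088 with normexp, 0.25 with quantile normalization or the authors' table, 0.20 with the percentile of measured probes, 0.0033 with the mean of all probes and -0.59 to 0.00026 when mice were left out. The difference between mice of Slc37a4 became 0.022 with normexp, 0.36 with slide and -0.55 to 0.043 without an array replicate, and that of Pygl 0.48 with the mean of all probes, 0.70 with slide and -0.73 to 0.29 without an array replicate. Over single genes and settings, 423 values kept their direction and side of the threshold, 59 passed only under the alternative, 35 no longer passed and 12 turned. The cause was not tested. Signals under background limit what can be said of Fbp1, Gys2, Gckr and G6pc in eHep.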
